A study of Homo sapiens with 4 samples.

Results

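The 47 genes described here encode the machinery that copies DNA in S phase, from the proteins that mark replication origins to the polymerases, nucleotide-making enzymes and histone chaperones of the fork. They were chosen by name, as known DNA replication and S phase genes, out of the 33634 genes with a count in the data. RNA was sequenced from H9 cells, a human embryonic stem cell line labelled as primed and grown in Essential8 medium on Geltrex, with no genetic change or drug treatment given in the labels. All 4 libraries came from extracted nuclei fixed with formaldehyde, and transcripts were reverse transcribed (RT) from their poly(A) tails. The conditions were RT after tagmentation by the Tn5 transposase with DNA profiling for H3K27me3 and H3K27ac (Post, RNA and DNA), RT before tagmentation with the same profiling (Pre, RNA and DNA), RT after tagmentation without DNA profiling (Post, RNA only) and RT before tagmentation without it (Pre, RNA only). Each condition was 1 library of 1 cell line, so differences between conditions could not be checked against replicates, and whether the libraries came from 1 culture is not known here. How libraries without DNA profiling were treated at the tagmentation step is also not given.

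Replication is licensed when the origin recognition complex (ORC), CDC6 and CDT1 load the ring-shaped MCM helicase onto DNA before S phase, with geminin (GMNN) holding CDT1 back afterwards. CDC45 and the GINS complex then turn the loaded ring into an active helicase. DNA polymerase alpha with its primase starts each strand, polymerases delta and epsilon extend it on the sliding clamp PCNA, and FEN1 and LIG1 join the fragments of the lagging strand. Many of these genes are transcribed in late G1 under the E2F factors, and human pluripotent stem cells are known for a short G1 phase and a large proportion of cells in S phase.

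RefSeq promoter entries (GRCh38.p14) were matched for 42 of the 47 genes, with MCM4, MCM5, GINS4, POLD3 and CCNE2 unmatched. The 250 bases before the start were searched on both strands for the E2F letters TTTCGCGC and TTTGGCGC, which can overlap, and for CCAAT, the letters read by the factor NF-Y. The E2F letters stood in 7 of the 42 promoters (16.7%: E2F1, GMNN, MCM6, MCM7, POLA1, POLA2 and POLE), against 1.20% of the promoters of 27305 genes. CCAAT stood in 24 of the 42 (57.1%), against 37.0% of all. Stretches of 60 bases around the match are shown for GMNN and POLA2, the members with the lowest Post over Pre ratios below, for MCM6, which held 4 match positions, and for E2F1 itself. Each is written 5′ to 3′ on the gene's strand, with the E2F letters in capitals; in MCM6 a match on each strand overlaps. GMNN lies at chr6:24775307-24775366 (+), POLA2 at chr11:65261883-65261942 (+), MCM6 at chr2:135876496-135876555 (-) and E2F1 at chr20:33686386-33686445 (-).
GMNN: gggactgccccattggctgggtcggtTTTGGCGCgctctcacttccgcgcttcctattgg
POLA2: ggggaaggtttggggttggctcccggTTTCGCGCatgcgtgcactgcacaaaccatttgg
MCM6: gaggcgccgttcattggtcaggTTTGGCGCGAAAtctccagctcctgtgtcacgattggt
E2F1: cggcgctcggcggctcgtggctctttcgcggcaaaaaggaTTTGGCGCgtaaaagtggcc
For GMNN and POLA2 the RefSeq start used here lies downstream of the start of the gene in GENCODE. These letters are a description of the sequence and do not show that a factor binds there.

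Levels are given in RPM, the reads of a gene out of each 1000000 counted in its library. With DNA profiling the totals were 10089552 (Post) and 8960724 (Pre), and without it 6368721 (Post) and 9379073 (Pre). The shallowest library also stood apart in composition: 6 genes named after sequence clones made up 34.8% of the counts in Post, RNA only, against 10.7% to 15.8% in the other 3 libraries. All 10 markers of pluripotent cells were above 10 RPM on average, with a summed level of 2094 to 2947 RPM per library. Markers of mesoderm summed to at most 4.26 RPM, of endoderm to at most 8.23 RPM and of trophoblast to at most 4.76 RPM, with HAND1 at 0. For neuroectoderm, 1 of 4 markers passed 10 RPM (summed level 154 to 204 RPM), and for fibroblasts, 1 of 5 (36.3 to 51.1 RPM). In bulk libraries, fewer cells in S phase and less of a transcript per cell cannot be told apart.

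All 47 genes passed the filter used for comparisons, a level averaging 10 RPM or more across the libraries, as did 11564 genes in all. Their summed share of all counts was 0.359% in Post, RNA and DNA (95% Clopper-Pearson interval 0.355% to 0.363%), 0.394% in Pre, RNA and DNA (0.390% to 0.398%), 0.280% in Post, RNA only (0.276% to 0.284%) and 0.389% in Pre, RNA only (0.385% to 0.393%). With the 6 clone-named genes taken out of the totals, a change made after the data were seen, the shares were 0.426%, 0.441%, 0.430% and 0.443% in the same order. The 47 genes thus had their lowest share in Post, RNA only, and the shares drew close together once those 6 genes were left out. In Post, RNA only, 43 of the 47 had their lowest level of the 4 libraries, and GINS2 was the 1 gene with its highest level there. The median level of all genes past the filter was also lowest in that library, at 27.5 RPM against 34.4 to 37.5 RPM in the others. The share of all genes with their lowest level there was not computed, so the count of 43 is not read as a trait of the 47. These intervals, and all others below, cover counting error only.

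The median of the 47 mean levels was 52.1 RPM, against 34.1 RPM for all genes past the filter. POLA1, the catalytic subunit of polymerase alpha, was the most abundant by RPM: 537.8 RPM (Post) and 522.7 RPM (Pre) with DNA profiling, and 382.3 RPM (Post) and 523.7 RPM (Pre) without it. The 3 libraries other than Post, RNA only lay close together for it. At the other end was CCNE2, a cyclin of S phase entry, with 10.7, 13.1, 9.58 and 12.4 RPM in the same order of libraries. Only CCNE2 and GINS3 (8.64 RPM) fell under 10 RPM in any library, both in Post, RNA only. Longer genes tended to have more RPM: across the 47 genes, mean RPM and gene length had a Spearman correlation of 0.54 (0.44 across 10236 genes with a place in the annotation), as a description across genes that share libraries.

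Per kilobase the order changed. Per kilobase of gene, mean level was highest for the helicase subunits MCM7 (9.67 RPM per kb), MCM4 (9.41) and MCM3 (7.08), then for ORC6 (5.02) and the flap nuclease FEN1 (4.89). It was lowest for GINS3 (0.11) and POLD3 (0.30). Per kilobase of the longest annotated transcript, the highest were the clamp loader subunit RFC3 (117 RPM per kb), the primase subunit PRIM2 (91.8), POLA1 (85.3), ORC3 (49.0) and MCM3 (46.1), and the lowest was CCNE2 (3.43). MCM3 was thus the 1 gene among the leading 5 on both scales. FEN1 overlaps FADS2 on the same strand, and the sources do not say whether counting used strand or kept reads with several matches.

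**Figure D1:**
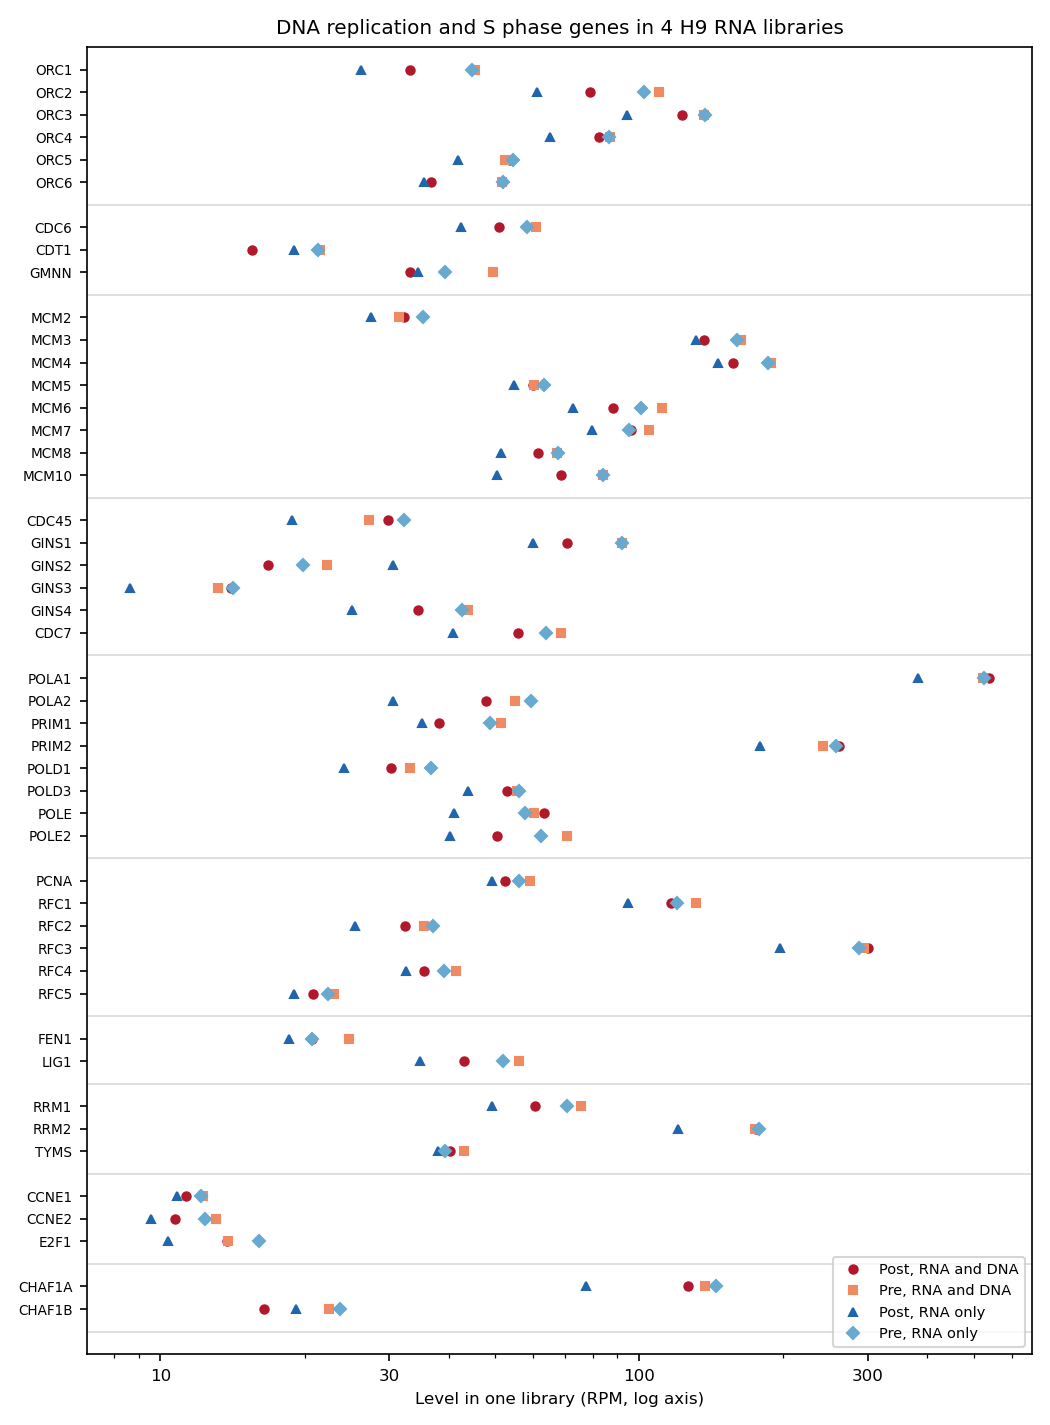
Level of each of the 47 genes in each library (RPM, log axis), grouped by role from the origin recognition complex at the top to chromatin assembly at the bottom, with a symbol for each of the 4 libraries. POLA1 lies furthest right (382.3 to 537.8 RPM), and for 43 of the 47 genes the triangle of Post, RNA only is the leftmost symbol, while for GINS2 it is the rightmost.

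Libraries were compared by the log2 ratio of RPM + 1, and each ratio is given relative to the median ratio of all 11564 genes past the filter (the transcriptome median), which was -0.09 for Post over Pre with DNA profiling (the profiled pair), -0.44 without it (the RNA only pair), 0.38 for RNA and DNA over RNA only in the Post libraries and 0.03 in the Pre libraries. A gene at least 1.5-fold above or below that median is called higher or lower. Of the 47 genes, 44 (93.6%) stayed within 1.5-fold of the median in all 4 comparisons, against 87.5% of all genes. Within 1.25-fold in all 4 stayed 33 of the 47 (70.2%), against 54.6% of all genes. All genes were not matched to the 47 for level (median of 34.1 against 52.1 RPM), and counting error is larger at lower levels. These shares are therefore not read as a trait of the 47. The origin subunit ORC4 moved least, with no relative log2 ratio further from 0 than 0.04, followed by RFC2 (0.09), ORC3 (0.10) and RFC1 (0.10). The 3 genes past 1.5-fold anywhere were GINS2, CDT1 and CHAF1B. Past 2-fold was GINS2 alone: higher in the RNA only pair, Post over Pre (1.33% of all genes higher and 0.0519% lower), and lower in the Post libraries, RNA and DNA over RNA only (2.32% of all lower and 0.0432% higher). In the profiled pair (0.156% of all higher, 0.0951% lower) and the Pre libraries (0% higher, 0.0173% lower) 0 of the 47 passed 2-fold.

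The first question was how the order of RT and tagmentation changed the transcripts read when DNA was profiled too. In the profiled pair, Post over Pre, 0 of the 47 genes were called higher (1.1% of all genes) and 0 lower (2.02% of all). Their median relative log2 ratio was -0.08, with 14 genes above and 33 below the transcriptome median, and the range ran from -0.47 (GMNN) to 0.22 (CDC45). Most of the 47 genes therefore sat slightly below the middle of the transcriptome, none of them by as much as 1.5-fold. The 95% counting interval lay wholly below the transcriptome median for 18 of the 47 (38.3%, against 19.7% of all genes) and wholly above it for 4 (8.51%, against 17.7%). The 18 were ORC1, ORC2, ORC6, CDT1, GMNN, MCM3, MCM4, MCM6, MCM10, GINS1, GINS2, GINS4, CDC7, PRIM1, POLE2, LIG1, RRM1 and CHAF1B, and the 4 were POLA1, PRIM2, RFC3 and RRM2. The relative log2 ratios of the 47 had an SD of 0.18, against 0.11 from counting alone and 0.25 among all genes. Here and below, all genes were not matched to the 47 for level, on which counting intervals and SDs depend. The part of level in these differences was not tested.

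The same question was asked without DNA profiling. In the RNA only pair, Post over Pre, 1 of the 47 genes was called higher, GINS2 (2.13% of the 47, against 5.26% of all genes), and 0 lower (2.01% of all). The median relative log2 ratio was -0.02, with 21 genes above and 26 below the transcriptome median. The range ran from -0.50 (POLA2) to 1.04 (GINS2), and the next highest was TYMS at 0.39. The counting interval lay above the transcriptome median for 7 genes (14.9%, against 18.8% of all): GMNN, MCM3, MCM5, MCM7, GINS2, PCNA and TYMS. It lay below for 9 (19.1%, against 21.4%): ORC1, ORC2, MCM10, CDC45, GINS1, GINS4, POLA2, RFC3 and CHAF1A. The SD of the relative log2 ratios was 0.26, and 0.21 without GINS2, against 0.13 from counting and 0.36 among all genes.

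These 2 pairs share no library. Of the 47 genes, 24 had the same sign in both, 18 lower and 6 higher in Post, while 15 were higher without DNA profiling and lower with it, and 8 the reverse. The shares of all genes in these classes were not computed, so these counts are not read as a trait of the 47. Across the 47 genes the ratios of the 2 pairs had a Spearman correlation of 0.00 (-0.08 across all genes with a place), as a description. The counting interval lay below the transcriptome median in both pairs for ORC1, ORC2, MCM10, GINS1 and GINS4, and above it in both pairs for no gene. Below in both pairs were thus 5 of the 47 (10.6%, against 4.32% of all genes), and above in both were 0 (0%, against 3.88%). The same side in either direction was found for 5 of the 47 (10.6%, against 8.2% of all genes). It lay on opposite sides for 4 of the 47 (8.51%, against 10.2% of all genes): GMNN, MCM3, GINS2 and RFC3.

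**Figure D2:**
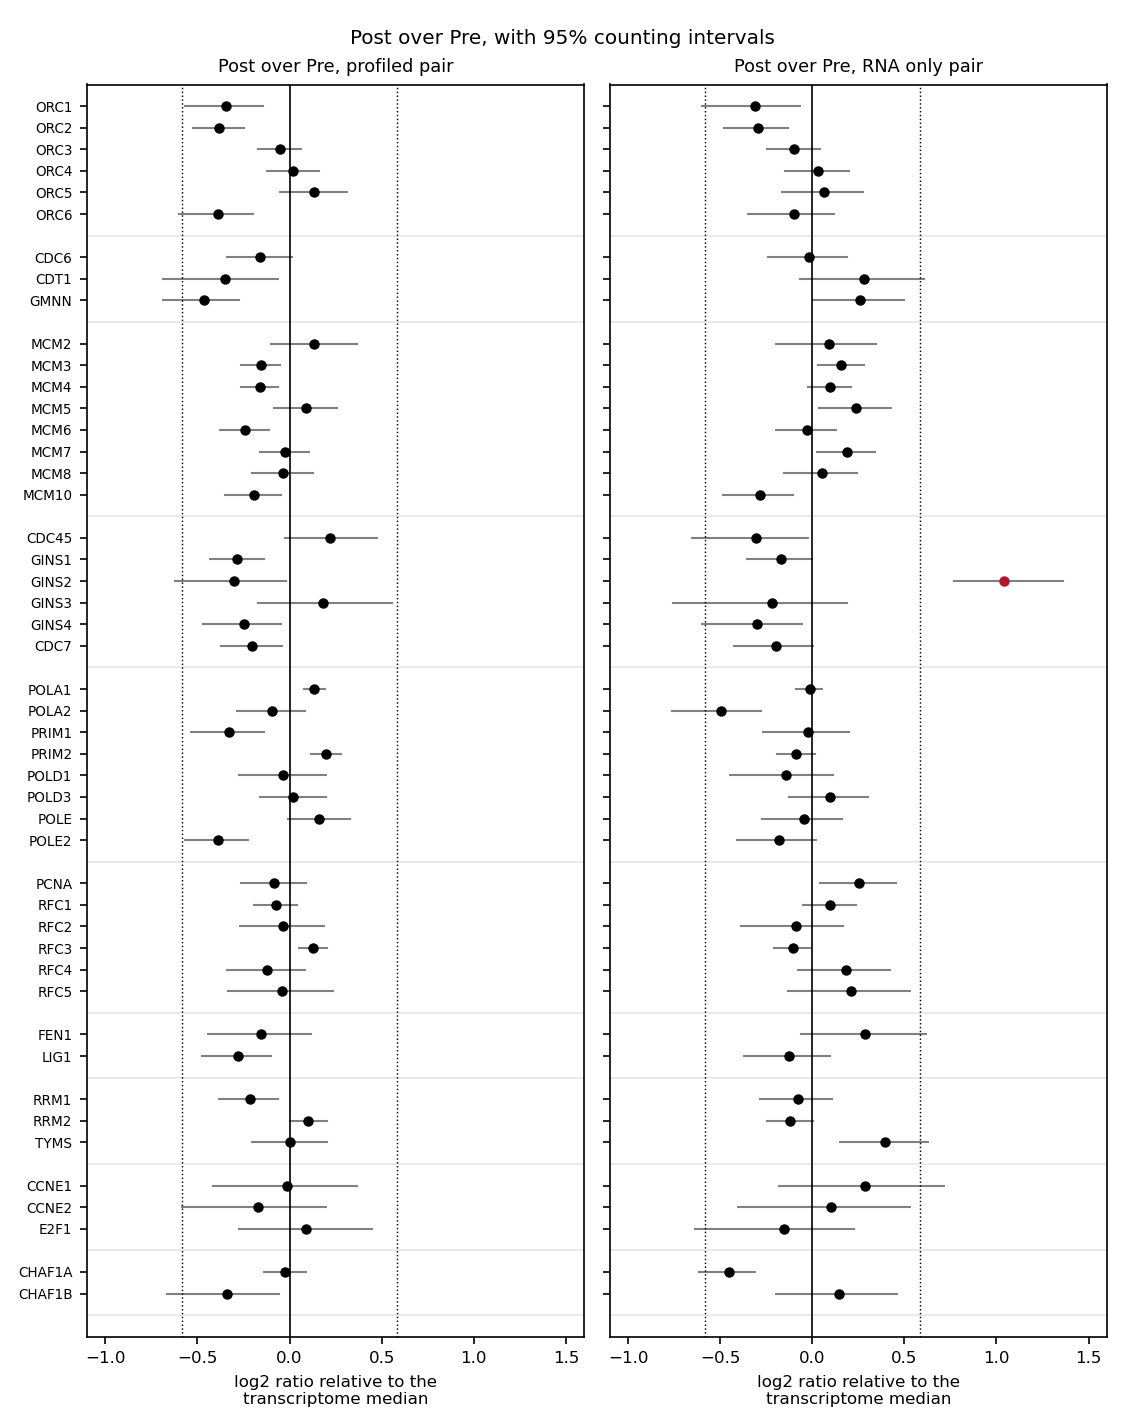
Relative log2 ratio, Post over Pre, of each of the 47 genes in the profiled pair (left) and the RNA only pair (right), with 0 the transcriptome median, grey bars the 95% counting intervals and dotted lines 1.5-fold. GINS2 in the RNA only pair, in red at 1.04, is the single point past a dotted line, and the points of the left panel lie mostly left of 0 (33 of 47).

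Among the 6 subunits of the origin recognition complex, which marks where replication can begin, ORC1 and ORC2 had lower ratios in both pairs. ORC2 was at 78.9 RPM in Post, RNA and DNA, against 110 RPM in Pre, RNA and DNA, and at 61.1 RPM in Post, RNA only, against 102 RPM in Pre, RNA only. Its relative log2 ratio was -0.38 (95% counting interval -0.52 to -0.25) in the profiled pair and -0.30 (-0.48 to -0.13) in the RNA only pair, so that both Post libraries lay below both Pre libraries. ORC1, the subunit whose protein level changes most through the human cell cycle, gave -0.34 (-0.57 to -0.14) and -0.31 (-0.60 to -0.07) in the same order of pairs, from 33.2 RPM against 45.3 RPM and 26.2 RPM against 44.7 RPM. ORC3, the most abundant by RPM of the 6, was at 123 RPM against 136 RPM and at 94.2 RPM against 137 RPM. ORC3, ORC4 and ORC5 lay within 0.13 of the transcriptome median in every comparison. ORC6 was at 36.7 RPM in Post, RNA and DNA, against 51.7 RPM in Pre, RNA and DNA, a relative log2 ratio of -0.39 (-0.60 to -0.20), and at 35.5 RPM in Post, RNA only, against 52.0 RPM in Pre, RNA only (-0.10, -0.35 to 0.12). ORC6 and ORC2 were thus lower by a similar amount with DNA profiling, and only the interval of ORC2 left out 0 without it; the difference between the pairs was not tested.

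The licensing factors differed more between the pairs. CDT1, which brings the MCM ring to the origin, was at 15.6 RPM in Post, RNA and DNA, against 21.5 RPM in Pre, RNA and DNA, and at 19 RPM in Post, RNA only, against 21.3 RPM in Pre, RNA only. It was lowest in Post, RNA and DNA, with counts of only 121 to 200 per library behind these levels. Its relative log2 ratio was -0.35 (-0.69 to -0.06) in the profiled pair and 0.28 (-0.07 to 0.60) in the RNA only pair. GMNN, the inhibitor of CDT1, was at 33.2 RPM in Post, RNA and DNA, against 49.4 RPM in Pre, RNA and DNA, and at 34.5 RPM in Post, RNA only, against 39.2 RPM in Pre, RNA only. Pre, RNA and DNA was the high library and the others lay between 33.2 and 39.2 RPM. The relative log2 ratio of GMNN was -0.47 (-0.69 to -0.27) in the profiled pair, the lowest of the 47, and 0.26 (0.01 to 0.50) in the RNA only pair. CDC6, the ATPase that works with ORC in loading, was at 50.9, 60.9, 42.4 and 58.4 RPM in Post and Pre with DNA profiling and Post and Pre without it, and its intervals included 0 in every comparison.

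In the MCM family, MCM2 to MCM7 form the replicative helicase, MCM8 acts in recombination repair and MCM10 helps the helicase start. MCM4 was at 157 RPM in Post, RNA and DNA, against 188 RPM in Pre, RNA and DNA, and at 146 RPM in Post, RNA only, against 185 RPM in Pre, RNA only. MCM3 was at 137 RPM against 163 RPM and at 132 RPM against 160 RPM in the same pairs. For both genes the 2 Post libraries lay below the 2 Pre libraries before the transcriptome median was taken off. Relative to that median, MCM3 was at -0.16 (-0.26 to -0.05) in the profiled pair and 0.16 (0.03 to 0.28) in the RNA only pair, and MCM4 at -0.16 (-0.26 to -0.06) and 0.10 (-0.02 to 0.21). MCM10 was lower in both pairs, -0.20 (-0.35 to -0.05) with DNA profiling and -0.28 (-0.49 to -0.11) without. MCM6, at 88.1 RPM against 111 RPM and at 72.7 RPM against 101 RPM, gave -0.24 (-0.38 to -0.11) and -0.03 (-0.19 to 0.13). MCM2 was at 32.3 RPM against 31.5 RPM and at 27.5 RPM against 35.3 RPM, with ratios of 0.13 and 0.09 and intervals that included 0. Over the 8 genes the median was -0.10 in the profiled pair and 0.09 in the RNA only pair, and each of the 8 kept within 0.28 of the transcriptome median on the log2 scale in both pairs.

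The GINS complex held the gene that moved most. GINS2 (chr16:85676198-85690073, minus strand) was at 16.8 RPM in Post, RNA and DNA (95% Poisson interval 14.3 to 19.5), against 22.3 RPM in Pre, RNA and DNA (19.3 to 25.6), and at 30.6 RPM in Post, RNA only (26.5 to 35.2), against 19.8 RPM in Pre, RNA only (17.1 to 22.9). These are counts of 169, 200, 195 and 186, so GINS2 had more counts in the shallowest library (195) than in the deepest (169). Its relative log2 ratio was -0.30 (-0.62 to -0.02) in the profiled pair and 1.04 (0.77 to 1.36) in the RNA only pair. The other 3 subunits of the complex were on the other side in the RNA only pair. GINS1 was at 60.1 RPM in Post, RNA only, against 92.2 RPM in Pre, RNA only (-0.17, with an interval from -0.36 to just below 0), and GINS4 at 25.1 RPM against 42.6 RPM (-0.30, -0.60 to -0.06). GINS3, at 8.64 RPM against 14.2 RPM, gave -0.22 (-0.76 to 0.19). In the profiled pair GINS1 (-0.28) and GINS4 (-0.25) lay with GINS2, and GINS3 was at 0.18 (-0.17 to 0.55), from 14.1 RPM in Post against 13.2 RPM in Pre. GINS2 overlaps GSE1 on the opposite strand; GSE1 was at 417 RPM in Post, RNA and DNA, against 368 RPM in Pre, RNA and DNA, and at 190 RPM in Post, RNA only, against 416 RPM in Pre, RNA only. GSE1 was thus lowest in the library in which GINS2 was highest (relative log2 ratio in the RNA only pair -0.69). The part of GSE1 reads in the GINS2 counts was not tested. GINS1 overlaps NINL on the opposite strand, which was at 0.06 in the profiled pair and -0.53 in the RNA only pair. The part of NINL reads in the GINS1 counts was not tested.

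CDC45, the partner of GINS in the active helicase, was at 29.8 RPM in Post, RNA and DNA, against 27.2 RPM in Pre, RNA and DNA, and at 18.8 RPM in Post, RNA only, against 32.2 RPM in Pre, RNA only. It was low in Post, RNA only alone. Its relative log2 ratio was 0.22 (-0.02 to 0.48) in the profiled pair, the highest of the 47 there, and -0.30 (-0.65 to -0.03) in the RNA only pair. CDC7, the kinase that fires origins, was at 55.8 RPM against 68.7 RPM and at 40.8 RPM against 63.9 RPM and gave -0.20 in each pair (-0.37 to -0.04 and -0.42 to 0.00).

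**Figure D3:**
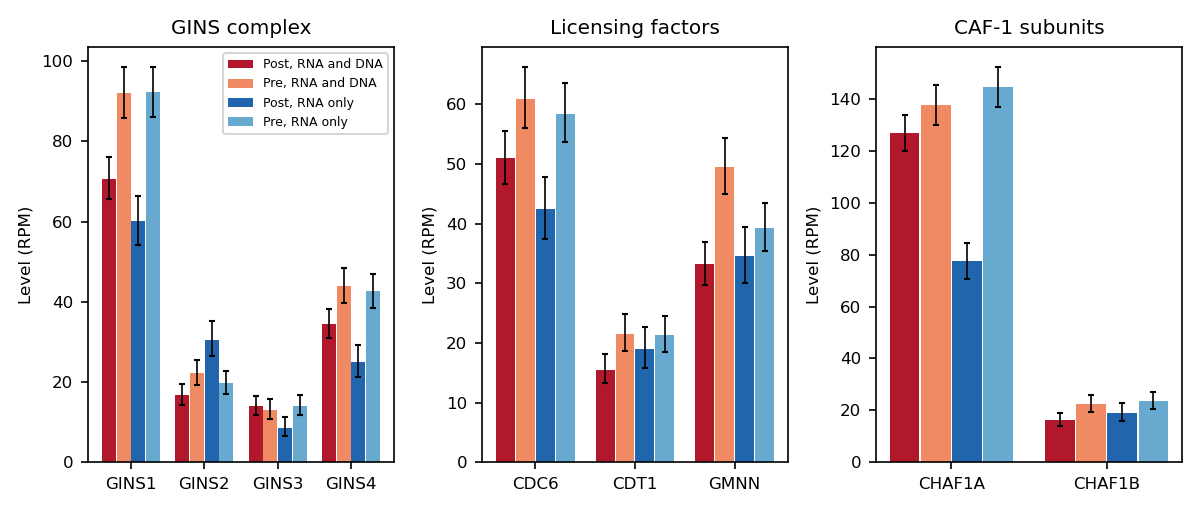
Levels in RPM of the 4 GINS subunits (left), the 3 licensing factors (middle) and the 2 large subunits of CAF-1 (right) in each library, with 95% Poisson counting intervals as error bars and axes from 0. GINS2 is highest in Post, RNA only (30.6 RPM), where GINS1, GINS3 and GINS4 are each at their lowest.

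Polymerase alpha and primase work as 1 complex of 4 subunits, and these did not share 1 ratio. POLA1 was 0.13 above the transcriptome median in the profiled pair (0.08 to 0.19) and PRIM2 0.20 (0.12 to 0.28), while PRIM1, the catalytic primase subunit, was at -0.33 (-0.54 to -0.14) and POLA2 at -0.10 (-0.29 to 0.08). In the RNA only pair the order differed. POLA2 (chr11:65261913-65305959, plus strand), the accessory subunit, was at 48.0 RPM in Post, RNA and DNA, against 54.9 RPM in Pre, RNA and DNA, and at 30.6 RPM in Post, RNA only, against 59.4 RPM in Pre, RNA only. It gave -0.50 (-0.76 to -0.28) there, the lowest of the 47, while POLA1 (-0.01), PRIM1 (-0.02) and PRIM2 (-0.09) lay near 0. PRIM1 overlaps NACA on the same strand. NACA, at 94.3 to 121 RPM, had relative log2 ratios of -0.27 in the profiled pair and 0.49 in the RNA only pair. POLA2 overlaps a gene on the same strand that has no counts under its name here. The part of such reads in the counts of PRIM1 and POLA2 was not tested. PRIM2, the large primase subunit, was at 261 and 243 RPM in Post and Pre with DNA profiling and at 179 and 258 RPM in Post and Pre without it. Of the other polymerase genes, POLE2, a subunit of polymerase epsilon, was at 50.4 RPM in Post, RNA and DNA, against 70.8 RPM in Pre, RNA and DNA (-0.39, -0.57 to -0.22), and gave -0.18 (-0.41 to 0.02) in the RNA only pair. POLE, which holds the catalytic site of the same enzyme, was at 63.1 RPM against 60.3 RPM and at 41.0 RPM against 57.7 RPM and gave 0.16 (-0.01 to 0.33) and -0.05 (-0.27 to 0.16). POLD1, the catalytic subunit of polymerase delta, was at 30.3 RPM against 33.3 RPM (-0.04) and at 24.2 RPM against 36.7 RPM (-0.14). POLD1 and POLD3, another subunit of that enzyme, had intervals that included 0 in every comparison.

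Among the clamp genes, PCNA, the ring that tethers polymerases, was at 52.3 RPM in Post, RNA and DNA, against 59.3 RPM in Pre, RNA and DNA (-0.08, -0.26 to 0.09), and at 49.1 RPM in Post, RNA only, against 56.1 RPM in Pre, RNA only (0.25, 0.04 to 0.45). RFC3, the most abundant clamp loader subunit by RPM, was at 301 RPM against 294 RPM and at 197 RPM against 287 RPM in the same pairs. Only Post, RNA only was low for it, and it gave 0.13 (0.05 to 0.20) in the profiled pair and -0.11 (-0.21 to -0.01) in the RNA only pair. RFC1, the largest clamp loader subunit, was at 117 RPM against 131 RPM and at 94.5 RPM against 120 RPM. RFC1, RFC2, RFC4 and RFC5 had intervals that included 0 in both pairs, with relative log2 ratios of -0.12 to -0.04 in the profiled pair and -0.09 to 0.21 in the RNA only pair.

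FEN1, which cuts the flaps of lagging-strand fragments, was at 20.7 RPM in Post, RNA and DNA, against 24.8 RPM in Pre, RNA and DNA, and at 18.5 RPM in Post, RNA only, against 20.7 RPM in Pre, RNA only. Its relative log2 ratio was -0.15 (-0.44 to 0.11) in the profiled pair and 0.29 (-0.06 to 0.62) in the RNA only pair, and its intervals included 0 in every comparison. LIG1, the ligase that seals those fragments, was at 43.1 RPM against 56.1 RPM and at 34.9 RPM against 51.9 RPM in the same pairs and gave -0.28 (-0.48 to -0.10) in the profiled pair and -0.12 (-0.37 to 0.10) in the RNA only pair. Of the nucleotide-making enzymes, RRM2, the small subunit of ribonucleotide reductase, was at 175 and 174 RPM in Post and Pre with DNA profiling and at 121 and 178 RPM in Post and Pre without it, with relative log2 ratios of 0.10 and -0.12. Its partner RRM1 was 0.22 below the transcriptome median in the profiled pair (a relative log2 ratio of -0.22, -0.38 to -0.06). TYMS, thymidylate synthase, was at 40.2 RPM against 43.0 RPM with DNA profiling and at 38.0 RPM against 39.2 RPM without it. Its level was nearly even over the libraries, which put it 0.39 (0.15 to 0.63) above the transcriptome median in the RNA only pair. TYMS overlaps ENOSF1 on the opposite strand, whose relative log2 ratio in the RNA only pair was -0.26, and the part of ENOSF1 reads in its counts was not tested.

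The genes of S phase entry were among the least abundant of the 47. E2F1 was at 13.8 RPM in Post, RNA and DNA, against 13.8 RPM in Pre, RNA and DNA, and at 10.4 RPM in Post, RNA only, against 16.1 RPM in Pre, RNA only. CCNE1, a cyclin of the G1 to S step, was at 11.3 RPM against 12.3 RPM (-0.02, -0.42 to 0.37) and at 10.8 RPM against 12.2 RPM (0.29, -0.18 to 0.72). The relative log2 ratios of E2F1 were 0.09 (-0.27 to 0.45) in the profiled pair and -0.15 (-0.64 to 0.23) in the RNA only pair. The intervals of E2F1, CCNE1 and CCNE2 included 0 in all 4 comparisons, so no difference was detectable for them at this depth. The intervals of CCNE2 spanned -0.58 to 0.20 in the profiled pair and -0.40 to 0.53 in the RNA only pair.

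CHAF1A and CHAF1B encode the large and middle subunits of chromatin assembly factor 1 (CAF-1), which places new histones behind the fork. CHAF1A (chr19:4402640-4445018, plus strand) was at 127 RPM in Post, RNA and DNA, against 137 RPM in Pre, RNA and DNA, and at 77.4 RPM in Post, RNA only, against 144 RPM in Pre, RNA only. It was low in Post, RNA only alone, with -0.02 (-0.14 to 0.09) in the profiled pair and -0.45 (-0.61 to -0.31) in the RNA only pair. CHAF1B (chr21:36385392-36419015, plus strand) was at 16.5 RPM against 22.5 RPM and at 19.2 RPM against 23.7 RPM, so its low library was Post, RNA and DNA. It gave -0.34 (-0.67 to -0.06) in the profiled pair and 0.15 (-0.20 to 0.46) in the RNA only pair.

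DNA profiling was compared with RNA only within each order of RT. These comparisons reuse the libraries of the pairs above. In the Post libraries, RNA and DNA over RNA only, 0 of the 47 genes were called higher (1.34% of all genes) and 3 lower (6.38% of the 47, against 7.63% of all genes). The 3 were GINS2 at -1.21 (-1.55 to -0.94), CDT1 at -0.65 (-1.02 to -0.31) and CHAF1B at -0.59 (-0.94 to -0.25). CHAF1B overlaps MORC3 on the same strand, which was at 0.19 in this comparison, and the part of MORC3 reads in its counts was not tested. CHAF1B lay just past 1.5-fold and fell short of it, at -0.58, with other scalings (TMM and median-of-ratios), and CDT1 fell short, at -0.53, after thinning to equal totals. GMNN, at -0.43 (-0.68 to -0.18), came next, before ORC6 at -0.33. The median over the 47 was -0.08, with 14 above and 33 below the transcriptome median. At the high end were CHAF1A at 0.33 (0.18 to 0.49) and GINS3 at 0.27 (-0.13 to 0.80), then CDC45 at 0.26, POLA2 at 0.25 and POLE at 0.23. The 2 CAF-1 subunits therefore lay on opposite sides of the transcriptome in the same 2 libraries. Intervals lay below the transcriptome median for 11 of the 47 (23.4%, against 20.4% of all) and above it for 7 (14.9%, against 20.7%).

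In the Pre libraries, RNA and DNA over RNA only, 0 of the 47 genes were called higher (0.0605% of all genes) and 0 lower (0.156% of all). The median was -0.01, with 22 genes above and 25 below the transcriptome median, and the SD of 0.11 was close to the 0.10 expected from counting (0.15 among all genes). The interval left out the transcriptome median for 3 of the 47 only: GMNN above it (0.30, 0.11 to 0.51; 2.13% of the 47, against 7.58% of all genes), and CDC45 (-0.26, -0.52 to -0.02) and PRIM2 (-0.11, -0.20 to -0.03) below it (4.26%, against 6.96%). Next lowest after CDC45 were E2F1 at -0.23 (-0.60 to 0.11), MCM2 at -0.19 (-0.42 to 0.04), POLD1 at -0.16 (-0.40 to 0.06) and POLA2 at -0.14 (-0.32 to 0.04). Next highest after GMNN were FEN1 at 0.22, POLE2 at 0.16, GINS2 at 0.14 and MCM6 at 0.12, all with intervals that included 0. The 2 libraries made with RT first therefore gave nearly the same levels for the replication genes, whether or not DNA was profiled.

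The ratios of the 47 genes varied with the length of the gene. Across the 47, the Spearman correlation with gene length was 0.41 for Post over Pre in the profiled pair and -0.45 in the RNA only pair, against 0.49 and -0.32 across 10236 genes. For RNA and DNA over RNA only it was 0.64 in the Post libraries and -0.30 in the Pre libraries, against 0.54 and -0.23. These are descriptions across genes that share the libraries, and 2 of the comparisons share each library. The 16 shortest genes (4.33 to 19.5 kb, among them CDT1, FEN1, GMNN, GINS2, PCNA and TYMS) had a median of -0.16 in the profiled pair, with 14 of 16 below the transcriptome median, and of 0.20 in the RNA only pair, with 12 of 16 above it. The 15 genes between (20.9 to 44.9 kb) had medians of -0.16, with 12 of 15 below, and -0.09. The 16 longest (48.3 to 332 kb, among them POLA1, PRIM2 and RFC3) had medians of 0.02 and -0.09. In the profiled pair the short and the middle genes thus leaned down alike, while in the RNA only pair the short ones alone had a median above 0. These length classes were formed after the values were seen. The part of gene length in the differences of single genes was not tested.

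**Figure D4:**
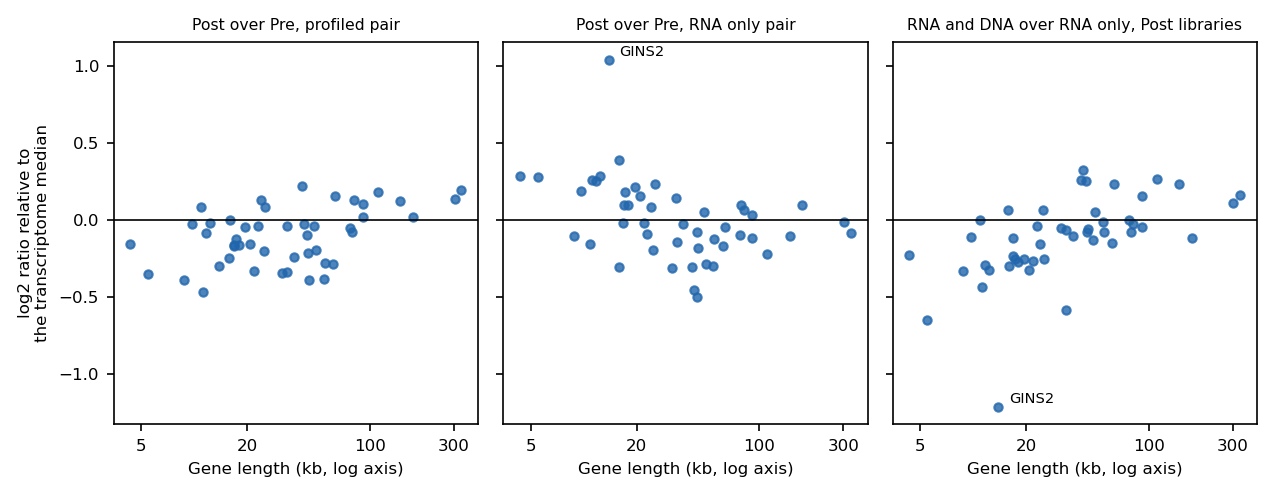
Relative log2 ratio of each of the 47 genes against gene length (kb, log axis) for Post over Pre in the profiled pair (left), Post over Pre in the RNA only pair (middle) and RNA and DNA over RNA only in the Post libraries (right), with 0 the transcriptome median. The points slope up to the right on the left and right (Spearman correlation 0.41 and 0.64) and down in the middle (-0.45), with GINS2 outermost in the middle and right panels.

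The 7 genes with E2F letters before the start had medians of -0.03 in the profiled pair and -0.03 in the RNA only pair. The 35 genes with a promoter entry and no such letters had medians of -0.08 and -0.08. The 7 included GMNN and POLA2, each the lowest of the 47 in 1 pair. They also included POLE and MCM7, which lay near or above the transcriptome median. The 7 genes with these letters thus did not go in 1 direction.

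Other genes of the cell cycle were set beside the 47. Of 60 further replication and S phase genes, 56 passed the filter (POLD4, POLE4, E2F2 and E2F8 did not), with medians of -0.08 in the profiled pair and 0.04 in the RNA only pair. In the profiled pair 1 was called higher (RECQL4, a helicase of origin firing) and 1 lower (DUT, which clears dUTP). In the RNA only pair 1 was called lower (DBF4B, an activator of CDC7, at -0.72), against 2.01% of all genes. Of 47 genes of G2 and M phase, 46 passed the filter, with medians of -0.14 and 0.07. In the profiled pair 1 was called lower (AURKB, a mitotic kinase), and in the RNA only pair 3 were called higher (PLK1, MAD2L1 and UBE2C). The shares of all genes called were 1.1% higher and 2.02% lower in the profiled pair, and 5.26% higher in the RNA only pair. These few calls are therefore not read as a trait of either list.

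The replication-dependent histone genes, which are also expressed in S phase but whose mature transcripts end in a stem-loop in place of a poly(A) tail, moved far more than the 47 genes. Of 71 such genes, 44 passed the filter. Post over Pre, their median relative log2 ratio was 0.67 in the profiled pair, with 31 of the 44 called higher, and 1.63 in the RNA only pair, with 43 of the 44 called higher; 0 were called lower in either. For the cytosolic ribosomal protein genes, 79 of 80 past the filter, the medians were -0.55 in the profiled pair (36 called lower, 0 higher) and 0.84 in the RNA only pair (61 called higher, 0 lower). Of all genes, 1.1% were called higher and 2.02% lower in the profiled pair, and 5.26% higher and 2.01% lower in the RNA only pair. The 47 replication genes, with medians of -0.08 and -0.02, followed neither list. The 16 shortest genes among them had medians of the same sign as the ribosomal protein genes in each pair, and whether the 2 have a shared source was not tested.

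**Figure D5:**
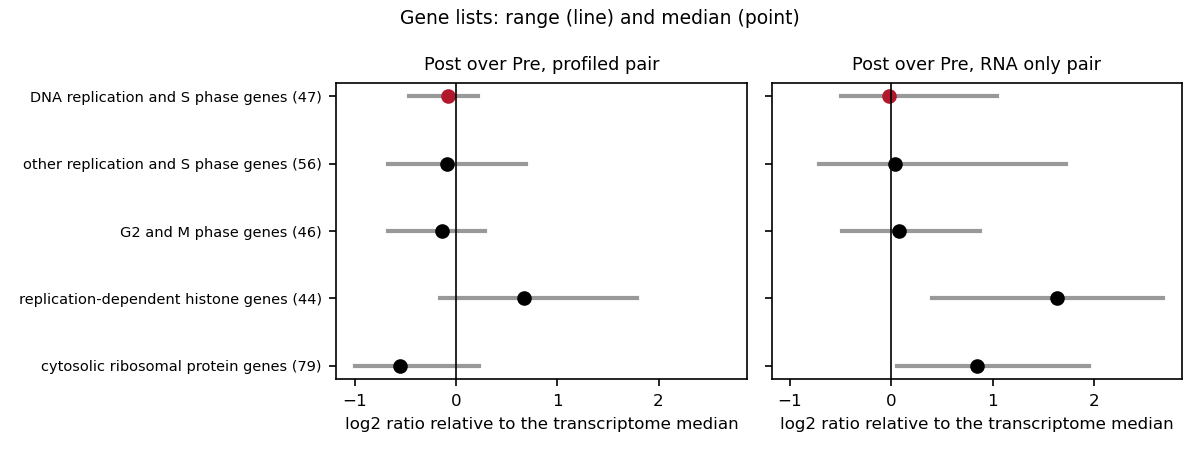
Median (point) and range (line) of the relative log2 ratio, Post over Pre, of 5 gene lists in the profiled pair (left) and the RNA only pair (right), with the number of genes past the filter in brackets and 0 the transcriptome median. The DNA replication and S phase genes (red, -0.08 and -0.02) lie by the other cell cycle lists near 0, while the histone genes lie at 0.67 and 1.63 and the ribosomal protein genes at -0.55 and 0.84.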

How the data were processed

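The authors aligned reads to GRCh38 and removed duplicates; the tools named for these libraries in the submitters' processing notes are STAR 2.7.11b, Bowtie2 2.5.3, Bowtie 1.3.1, SAMtools and Trim Galore 0.6.10. The deposited values are whole-number counts per gene symbol, with no normalization applied, and the annotation and the use of strand are not given in the sources used here. From each library's table the column of its own RT barcode was used, and the 60 other barcode columns were not used. Groups came from the sample titles, and no sample was left out.

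Counts were divided by library totals (6368721 to 10089552) to give RPM, and log2 ratios used a pseudocount of 1 RPM and a filter of 10 RPM on the mean over the 4 libraries. Genes were called at 1.5-fold from the transcriptome median. With 1 library for each condition, main results carry no p-value. Intervals (95%) are exact Poisson for RPM, exact binomial for shares and for ratios, where they were computed on counts without the pseudocount. The 47 genes, the other lists and the rules were chosen with earlier results of these data known. Named with full values were the 1 or 2 most abundant genes of each role and the 5 largest ratios per direction in each comparison, with further genes given where a list or a partner needed them. Places and lengths came from GENCODE 44 (GRCh38), in which all 47 genes were found; 15 overlap another protein-coding gene, 6 of them on the same strand. Alternatives were other folds, filters, scalings and pseudocounts, libraries thinned to equal totals, and additive models of both factors in edgeR 4.0.16 and DESeq2 1.42.0. The calling steps were tested on simulated data. The software was R 4.3.3 and Python 3.11.15 with scipy 1.17.1, pandas 2.3.3, matplotlib 3.10.9 and numpy 2.4.6. A result of the other lists that concerns a withheld item is not reported here.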

Additional observations from a re-analysis of the deposited data

Results flagged for a closer look

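For 4 of the 47 genes (8.51%, against 10.2% of all genes) the relative Post over Pre ratio went opposite ways in the profiled pair and the RNA only pair, with each pair's counting interval leaving out the transcriptome median. The values here are the relative log2 ratio of the profiled pair minus that of the RNA only pair. The difference was -1.34 for GINS2 (-0.30 and 1.04 in the 2 pairs), -0.73 for GMNN (-0.47 and 0.26), -0.31 for MCM3 (-0.16 and 0.16) and 0.23 for RFC3 (0.13 and -0.11). Before the transcriptome median was taken off, the log2 ratios of GMNN (-0.56 and -0.18) and MCM3 (-0.25 and -0.28) were below 0 in both pairs. Those of GINS2 (-0.39 and 0.60) and RFC3 (0.03 and -0.54) still had opposite signs. Each condition is 1 library, so the differences between the pairs were not tested. GINS2, GMNN and MCM3 span 13.9, 11.2 and 20.9 kb, and RFC3 spans 148 kb.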

How the results depend on the processing

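No paired analysis was possible because each condition has 1 library and no replicate numbers are shared; the additive models given here take the other factor as the block. The medians and counts of the 47 genes were recomputed under the alternatives 112 times, and 101 stayed within the tolerance. For a median, the tolerance was the median half-width of the counting intervals of single genes (0.18 to 0.22). For a count of calls it was 1.5 times. The tolerance was wider than each main median, so a median could change sign within it. With no filter on mean RPM, that of RNA and DNA over RNA only in the Post libraries went from -0.08 to 0.05, within tolerance. Without centring on the transcriptome median, which leaves the shift of all genes in the ratios, the RNA only pair had a median of -0.46 and 12 genes called lower, and RNA and DNA over RNA only in the Post libraries had a median of 0.30, 6 genes called higher and 1 lower (GINS2). With no filter on mean RPM, the RNA only pair had a median of -0.24 and 2 genes called lower (POLA2 and CHAF1A), and the Post libraries had 1 called lower (GINS2); a pseudocount of 5 RPM and the 2-fold rule also left GINS2 as the 1 gene called lower there. Thinning to 6368721 counts called 1 gene, ORC6, lower in the profiled pair. Without centring, the median ratio of all genes was itself -0.44 for the RNA only pair. For RNA and DNA over RNA only in the Post libraries it was 0.38. The shares of all genes called without centring, with no filter, with the larger pseudocount or after thinning were not computed. The counts of calls under those settings are therefore not read as a trait of the 47. The ratio of GINS2 in the RNA only pair ran from 0.60 without centring to 1.10 after thinning. Of 1056 recomputed ratios of single genes, 87 moved beyond their interval, 63 of them without centring. A change of sign was counted only for ratios past 1.5-fold, and 0 of those changed sign. Some ratios nearer 0 did change sign beyond their interval. In the RNA only pair, MCM3 went from 0.16 to -0.28 without centring and to -0.06 with no filter on mean RPM. In the same pair, GMNN went from 0.26 to -0.18 without centring. Other scalings moved the transcriptome median in the RNA only pair by 0.42 to 0.45. Ratios were centred again after each scaling, so a change of library size cancelled except through the pseudocount. These scalings therefore could not show whether the relative ratios depend on normalization. They changed no count of calls by over 1.5 times. CHAF1B was no longer called in the Post libraries with TMM or median-of-ratios, nor with a filter of 1 RPM. CDT1 was not called there after thinning. In additive models of both factors, with 1 residual degree of freedom, edgeR and DESeq2 each called 0 of the 47 genes for either factor at an adjusted p of 0.05, and 0 had an unadjusted p under 0.05 with either tool. Over all 11564 genes edgeR called 2 and DESeq2 27 higher for the order of RT, and for DNA profiling edgeR called 0 and DESeq2 1. The spread in these models came only from how the 2 pairs differed, so few genes could be called. The 0 calls therefore do not show that the 47 genes were unchanged. The cause of the other dependences was not tested. Depth limits the counts of the least abundant genes: GINS3 had 55 counts in Post, RNA only, and intervals of the 47 genes had a median half-width of 0.18 to 0.22 on the log2 scale.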

Other observations

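Beside the 47 genes, 2 abundant replication genes outside them are given for their levels in the same libraries. HELLS, a chromatin remodeller, was at 574 RPM in Post, RNA and DNA, against 586 RPM in Pre, RNA and DNA, and at 444 RPM in Post, RNA only, against 589 RPM in Pre, RNA only. NASP, a histone chaperone, was at 483 RPM against 614 RPM and at 375 RPM against 576 RPM in the same pairs. HELLS and NASP were lowest in Post, RNA only, like 43 of the 47 genes and like the median level of all genes past the filter.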
